A study of Homo sapiens with 12 samples.

Results

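The kallikrein-related peptidases KLK5, KLK6, KLK7, KLK8, KLK10 and KLK11 were followed across parental and oxamate-resistant pancreatic cancer cells. They were taken by symbol as 6 of the 26475 gene rows of an RNA-seq count table, and the set was chosen by the level of KLK6, which was among the genes most raised in the resistant line. The values of KLK6 are therefore a description in every comparison, with no test. MIAPaCa2 is an established human PDAC cell line, and oxamate is an inhibitor of lactate dehydrogenase A (LDHA). The 4 groups were parental cells without drug, parental cells treated with oxamate, resistant cells without drug and resistant cells treated with oxamate, with 3 libraries each. The resistant cells were polyclonal and were obtained by growing MIAPaCa2 in 10 mM sodium oxamate for 4 weeks, and how many separate derivations entered the libraries is not given in the sources used here. The drug concentration and the length of exposure before RNA extraction are not given in the sources used here. Nothing in the labels says that the replicates came from separate cultures, so the p-values measure only the spread between these libraries.

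Kallikrein-related peptidases are secreted serine proteases made as inactive precursors, which are switched on when a short propeptide is cut off, often by another kallikrein. KLK5 and KLK7 are best known from the outer skin, where they cut the junction proteins that hold dead cells together, and KLK6 and KLK8 are also known from the nervous system. Their genes lie side by side on chromosome 19, their activity is held back by inhibitors such as LEKTI (gene SPINK5) and serpins, and several of them can cut protease-activated receptors on the cell surface.

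On GRCh38, the 6 genes lay on the minus strand of chromosome 19 within 84.7 kb, inside a kallikrein cluster of 265.1 kb from KLK1 to KLK14. KLK6, the most abundant member, occupied chr19:50958631-50969673. KLK5 lay at chr19:50943303-50953093 and KLK7 at chr19:50976482-50984099, on either side of it. KLK8 lay at chr19:50996007-51002711, KLK10 at chr19:51012739-51020175 and KLK11 at chr19:51022216-51028039. The stretches upstream of the first exons of KLK6, KLK5 and KLK7 are shown because these 3 neighbours were the most abundant members. They come from RefSeq promoter windows of GRCh38.p14, without the annotated exons, and read 5′ to 3′ on the minus strand. The capitals mark CCGCCC, the reverse complement of the GC-box motif GGGCGG.
KLK6, chr19:50969674-50969841: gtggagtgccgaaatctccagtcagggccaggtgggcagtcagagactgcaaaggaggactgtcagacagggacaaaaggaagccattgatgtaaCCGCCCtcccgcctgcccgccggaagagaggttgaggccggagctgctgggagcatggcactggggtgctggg
KLK5, chr19:50953094-50953288: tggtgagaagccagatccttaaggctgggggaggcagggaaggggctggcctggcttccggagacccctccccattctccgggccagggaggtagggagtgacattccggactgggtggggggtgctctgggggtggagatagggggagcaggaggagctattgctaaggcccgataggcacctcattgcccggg
KLK7, chr19:50984100-50984314: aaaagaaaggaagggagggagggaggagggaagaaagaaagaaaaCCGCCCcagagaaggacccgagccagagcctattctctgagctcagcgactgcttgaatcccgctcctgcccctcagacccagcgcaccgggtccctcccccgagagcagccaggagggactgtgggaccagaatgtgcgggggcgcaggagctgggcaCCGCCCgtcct

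The 168 bases of KLK6 held 1 GC box, the 215 bases of KLK7 held 2, and the 195 bases of KLK5 held none. Windows of 300 bases were found for 5 of the 6 members, 9 windows in all, since several genes have more than 1 start. GGGCGG on either strand was present in 5 of the 9, covering KLK6, KLK7 and KLK11, against 45.0% of 35116 promoter windows. ACGTG was present in 3 of the 9, covering KLK10 and KLK11, against 21.4% of all windows. TATAAA and TGANTCA, each searched on both strands, were in none of the 9, against 11.5% and 7.71% of all windows. None of these motifs contains another. A match describes the letters of the window only.

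The libraries held between 46698729 and 114222169 expected counts, and every parental library was deeper than every resistant one. Levels are given as CPM, counts scaled to a common library size with TMM factors, and 3 counts were taken as the floor of detection, which corresponded to between 0.0283 and 0.0581 CPM. Floors cover counting error only, whereas the 95% intervals of fold changes rest on the spread between libraries. Of the 6 members, 5 passed the filter on low counts and KLK11 did not. The epithelial keratins KRT8 (676.3 to 1552 CPM), KRT18 (747.1 to 1327 CPM) and KRT19 (324.7 to 692.7 CPM) were abundant in all group means, as was vimentin (gene VIM, 6005 to 9899 CPM). Keratin KRT7 lay between 0.222 and 0.597 CPM in group means, and EPCAM did not exceed 3 counts. Under oxamate, KRT8, KRT18, KRT19 and VIM were lower in resistant cells and KRT7 was higher, where 80.3% of all genes were called. CDKN2A, CDKN2B and MTAP were at 0 counts in every library. Of 18 markers of skin keratinocytes, 7 were at 0 in all libraries, among them KRT1, KRT5 and LOR. The summed level of the 18 lay between 182.5 and 197 CPM in every library, mostly from TP63. Of 7 markers of acinar and islet cells, 4 were at 0, including INS and GCG, and the list summed to 0.465 to 1.59 CPM. Of 8 markers of fibroblasts, endothelium and blood, only COL1A2 (703 to 940.6 CPM) and CD68 (57.7 to 215.2 CPM) were above 1 CPM in any group mean. DCN and PTPRC did not exceed 3 counts.

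KLK6 encodes a trypsin-like protease. Its level was 27.5, 26.8 and 28.7 CPM in untreated parental cells, 34.7, 36.2 and 33.5 CPM in oxamate-treated parental cells, 141.9, 143.1 and 134.7 CPM in untreated resistant cells, and 140.6, 142.1 and 141.6 CPM in oxamate-treated resistant cells. All 6 resistant libraries stood above all 6 parental ones, and the parental groups did not overlap. These levels came from 1785 to 8520 counts per library.

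KLK7, a chymotrypsin-like protease, had 3.26, 3.21 and 3.96 CPM in untreated parental cells, 6.54, 5.96 and 5.01 CPM in treated parental cells, 11.2, 11.9 and 11.4 CPM in untreated resistant cells, and 12.4, 12.2 and 12.5 CPM in treated resistant cells. KLK5, a trypsin-like protease able to activate KLK7, had 1.90, 1.81 and 1.78 CPM in untreated parental cells, 3.45, 3.22 and 3.29 CPM in treated parental cells, 6.00, 6.68 and 6.08 CPM in untreated resistant cells, and 6.12, 6.95 and 6.14 CPM in treated resistant cells. For both genes the order was untreated parental, then treated parental, then resistant. The resistant groups of KLK5 overlapped, and those of KLK7 did not.

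KLK10 had 0.867, 0.862 and 1.06 CPM in untreated parental cells, 0.930, 1.09 and 1.16 CPM in treated parental cells, 2.67, 3.22 and 3.17 CPM in untreated resistant cells, and 3.18, 2.75 and 3.29 CPM in treated resistant cells. The lines were thus separated, while the groups with and without drug overlapped within each line. KLK8, also called neuropsin, had 1.22, 1.30 and 1.19 CPM in untreated parental cells, 1.91, 2.15 and 1.94 CPM in treated parental cells, 1.75, 1.70 and 1.73 CPM in untreated resistant cells, and 1.61, 1.65 and 1.56 CPM in treated resistant cells. On this TMM scale, KLK8 was the exception to the order of the other members. Its highest level was in treated parental cells, and none of its groups overlapped. With libraries scaled by size alone, its log2 fold change between lines under oxamate was 0.0065, so this peak depends on the scaling. Groups of 3 libraries did not overlap for 81.3% of all genes tested between lines under oxamate, for 61.6% after oxamate in parental cells and for 41.0% after oxamate in resistant cells.

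KLK11 lay at the count floor. Its 12 libraries held 12 counts in all, found in 5 libraries, with 4 as the highest. Untreated parental cells had 0 counts in each of the 3 libraries, treated parental cells 2, 0 and 0, untreated resistant cells 1, 0 and 3, and treated resistant cells 4, 0 and 2. A difference between groups was not detectable at this depth, and no fold change was computed.

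**Figure D1:**
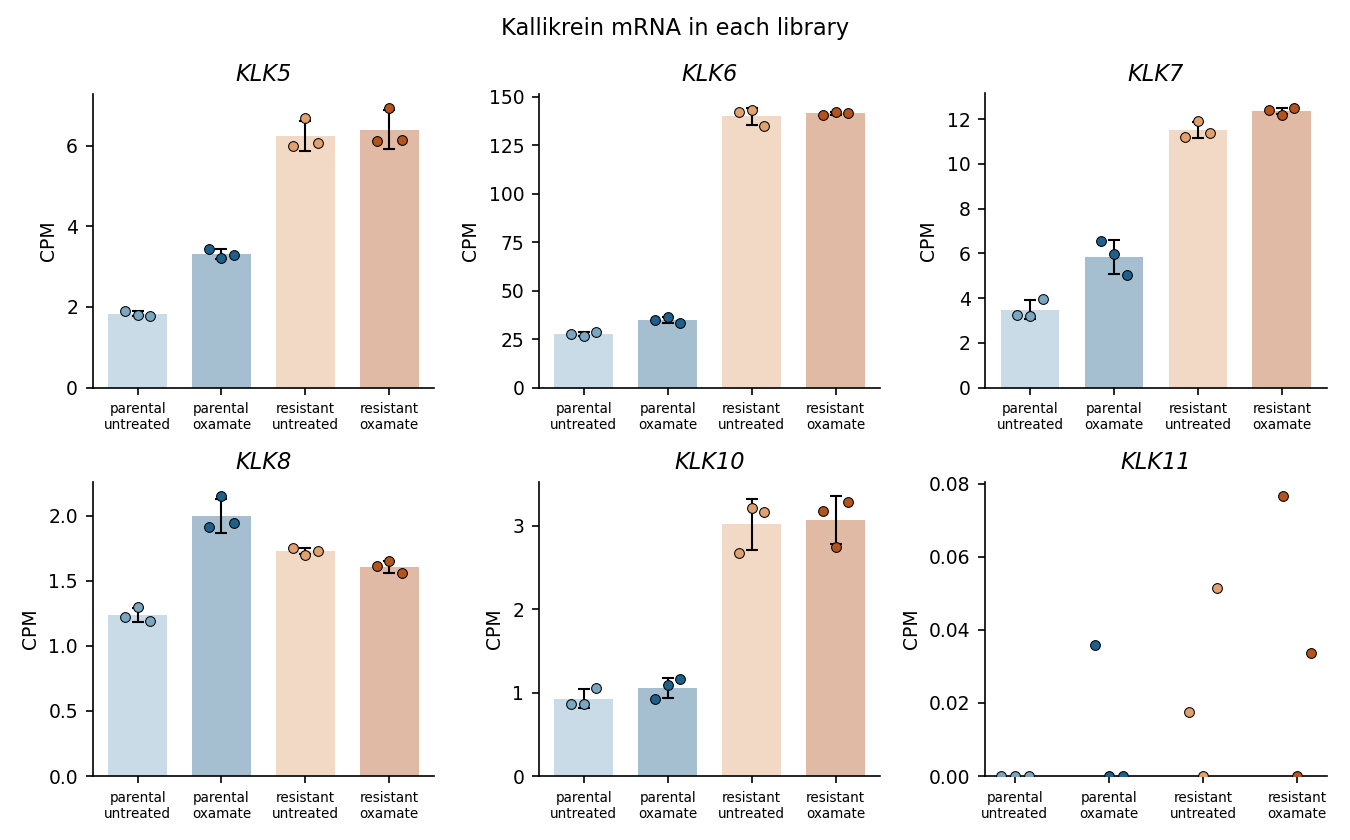
CPM of each member (vertical axis, linear from 0) in the 12 libraries by group, with points for libraries, bars for the group mean and error bars for the SD of 3 libraries, and for KLK11 points alone. KLK6 rises from about 27.7 CPM in untreated parental cells to about 139.9 CPM in untreated resistant cells, while KLK8 is highest in oxamate-treated parental cells under TMM scaling and KLK11 stays below 0.08 CPM.

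To compare members with each other, CPM were divided by the length of the merged GENCODE exons. On this scale KLK6 made up 80.3% ± 0.247 (SD, n = 3) of the summed level of the members in untreated parental cells, 75.4% ± 0.868 in treated parental cells, 87.4% ± 0.472 in untreated resistant cells and 87.1% ± 0.134 in treated resistant cells. KLK7 followed with 8.17%, 10.2%, 5.82% and 6.19%, and KLK5 with 6.35%, 8.60%, 4.67% and 4.71% in the same order of groups. KLK8 supplied 3.80% ± 0.303 in untreated parental cells and 1.14% ± 0.0447 in untreated resistant cells. KLK10 came after it with 1.38% and 0.968%. The per-length order was therefore KLK6, KLK7, KLK5, KLK8, KLK10 and KLK11 in every group, and the shares of neighbours did not overlap between libraries, except that KLK8 (1.02% to 1.07%) and KLK10 (0.862% to 1.04%) overlapped in treated resistant cells. The order of KLK8 and KLK10 in resistant cells rests on the lengths used, 1865 and 3853 bases. In CPM alone KLK10 was above KLK8 there, 3.02 against 1.72 without drug and 3.07 against 1.60 with oxamate. The members summed to 17.4 ± 0.637 CPM per kb in untreated parental cells, 23.4 ± 0.921 in treated parental cells, 81.0 ± 2.46 in untreated resistant cells and 82.2 ± 0.541 in treated resistant cells.

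Ratios of counts within a library do not depend on scaling between libraries. The KLK8 count was 0.301 to 0.405 of the KLK7 count in untreated parental libraries and 0.292 to 0.387 in treated parental libraries. It was 0.143 to 0.156 of the KLK7 count in untreated resistant libraries and 0.125 to 0.134 in treated resistant ones, below every parental library. The KLK5 to KLK7 ratio, by contrast, ran from 0.451 to 0.656 in parental and from 0.491 to 0.568 in resistant libraries, which overlapped.

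Under oxamate, the mean KLK6 level was 34.8 ± 1.34 CPM for parental and 141.4 ± 0.76 CPM for resistant cells (each n = 3, SD), a log2 fold change of 2.02 ± 0.034 (SE), or 4.07-fold. Of the 4 other measured members, 3 were higher in resistant cells. KLK10 was 2.89-fold higher (log2 fold change 1.53 ± 0.13, quasi-likelihood test of edgeR, Benjamini-Hochberg adjusted p = 1.47e-08), KLK7 2.13-fold (1.09 ± 0.085, adjusted p = 5.05e-09) and KLK5 1.93-fold (0.95 ± 0.077, adjusted p = 8.7e-09). KLK8 was 1.25-fold lower (-0.32 ± 0.10, adjusted p = 0.00949), a direction that was lost when libraries were scaled by their size alone (0.0065, adjusted p = 0.955), a scaling that moved the median of all genes up by 0.324. KLK8 also missed the threshold with upper-quartile factors (-0.23, adjusted p = 0.0618) and with DESeq2 (-0.32, adjusted p = 0.0726), and its adjusted p ran from 0.00871 to 0.955 over 18 alternatives.

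These 4 members were all called, in a comparison where 80.3% of the 14582 genes tested were called, 40.6% as higher and 39.7% as lower. With a fold change over 1.5 as well, 3 of the 4 were called, all higher, against 22.7% of genes that were higher by that rule. The median log2 fold change of the 4 was 1.02, against 0.0149 over all genes tested.

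In parental cells, oxamate raised 3 of the 4 tested members. KLK5 rose 1.81-fold (log2 fold change 0.86 ± 0.084, edgeR adjusted p = 3.7e-07), KLK7 rose 1.69-fold (0.76 ± 0.092, adjusted p = 3.82e-06) and KLK8 rose 1.61-fold (0.69 ± 0.098, adjusted p = 1.82e-05). KLK10 did not pass (0.21 ± 0.14, 95% interval -0.094 to 0.52, adjusted p = 0.221). For KLK6 the fitted fold change was 1.26 (log2 0.33 ± 0.036). By the adjusted p, 58.7% of all genes were called here, 28.3% as higher. With a fold change over 1.5 the same 3 members were called, against 5.32% of genes that were higher by that rule. The median log2 fold change of the 4 was 0.72, against 0.00296 over all genes. The untreated parental libraries of this comparison also entered the contrast between untreated lines.

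In resistant cells, none of the 4 tested members was called after oxamate by the edgeR test, where 21.5% of all genes were called, 9.01% as higher and 12.5% as lower. At an unadjusted p under 0.05 in this same fit the number was also 0. No member was called by DESeq2, limma-voom or any other alternative run. The closest was KLK7 with only the samples compared (log2 fold change 0.115, edgeR adjusted p = 0.0865). KLK5 differed by 0.033 on the log2 scale (95% interval -0.12 to 0.19), and KLK6 by 0.015 ± 0.031 (SE). The intervals for KLK7 (-0.058 to 0.28), KLK8 (-0.32 to 0.11) and KLK10 (-0.22 to 0.27) were wider. Here too, the untreated resistant libraries are shared with the contrast between untreated lines.

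The responses of the 2 lines were compared directly, as the response in resistant cells minus that in parental cells. It was lower for KLK5 (-0.82 ± 0.11, edgeR adjusted p = 2.19e-05), KLK8 (-0.79 ± 0.14, adjusted p = 0.000285) and KLK7 (-0.65 ± 0.12, adjusted p = 0.000445), and KLK10 did not pass (-0.18 ± 0.18, adjusted p = 0.441). Of all genes, 44.2% were called for this difference, 21.4% as lower. For KLK6 the estimate was -0.32 ± 0.048, given without a test.

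The untreated difference between lines is given as a description for all members. KLK6 was 5.06-fold higher in resistant cells (log2 fold change 2.34 ± 0.034), KLK5 was 3.41-fold, KLK7 3.34-fold, KLK10 3.29-fold and KLK8 1.39-fold higher. Among the 14582 genes KLK6 ranked 211 by log2 fold change, and the other 4 ranked 405 to 3216 by log2 fold change. By the adjusted p, 75.7% of genes were called in this contrast. The libraries of the lines did not overlap for any of the 5, which held for 77.7% of genes tested.

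**Figure D2:**
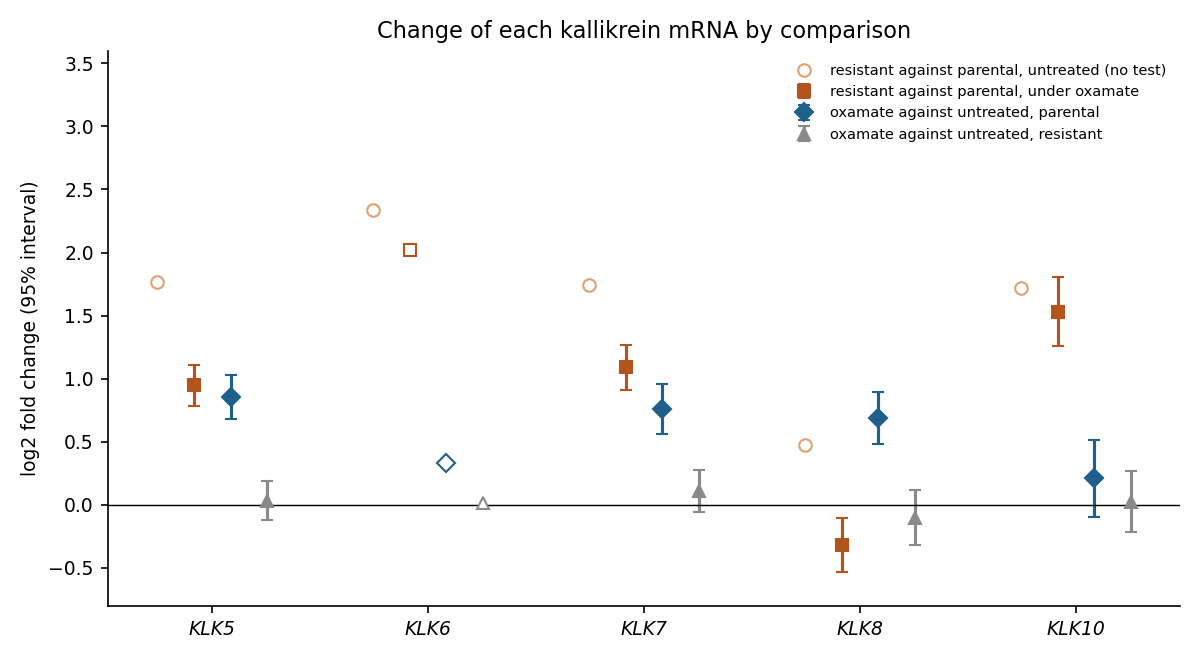
Log2 fold change (vertical axis) of the 5 measured members in 4 comparisons, with filled symbols and 95% intervals where a test was made and open symbols without intervals for KLK6 and for the untreated difference between lines. KLK6 lies at 2.34 and 2.02 between lines and near 0 after oxamate in resistant cells, and the value of KLK8 under oxamate, -0.32, lies below 0 with TMM scaling but not with library size alone.

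The RNAs retained in the nucleus moved with several of these comparisons. The summed level of MALAT1, NEAT1, KCNQ1OT1 and MIAT was 320.6 to 357.4 CPM in untreated parental cells, 544.3 to 1187 CPM in treated parental cells, 533.5 to 1112 CPM in untreated resistant cells and 1080 to 1407 CPM in treated resistant cells. All 4 were called higher after oxamate in parental cells, against 28.3% of all genes. Between lines under oxamate 3 were higher in resistant cells, against 40.6% of all genes. After oxamate in resistant cells 1 was higher, against 9.01%. Without the treated parental and untreated resistant libraries with the highest sums, chosen after seeing the data, edgeR called 4, 3, 0 and 3 of the 4 tested members between lines under oxamate, after oxamate in parental cells, after oxamate in resistant cells and for the difference between the responses. Without those libraries the groups still differed in the summed level, with 556.9 and 544.3 CPM in treated parental against 1080 to 1407 CPM in treated resistant cells. These calls therefore cannot separate the part of nuclear RNA in the members' levels, which was not tested.

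KLK5, KLK6 and KLK10 overlap genes on the opposite strand, over 202 of 1653, 401 of 1976 and 240 of 3853 exon bases, and KLK8 shares 747 of its 1865 exon bases with a read-through transcript on its own strand. The library kit is not stated to keep the strand, so reads of these genes and their partners in the shared bases cannot be told apart. All 12 values of each member were whole numbers, and no fractional read was assigned to them.

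Apart from KLK13 in parental cells, the other kallikreins were near or below the floor. Of the 16 kallikrein rows, KLK1, KLK2, KLK12 and the pseudogene KLKP1 had 0 counts in all libraries, KLK4 had at most 1, KLK3 (prostate-specific antigen) and KLK9 at most 2, KLK15 at most 4 and KLK14 at most 10. KLK13 passed the filter with 24, 13 and 19 counts in untreated parental, 14, 13 and 17 in treated parental, 5, 2 and 1 in untreated resistant and 6, 5 and 4 in treated resistant libraries. Its counts reached the filter only in parental libraries, which favours a lower value in resistant cells. The difference between lines is therefore a description with no test. Under oxamate the fitted level was 2.66-fold lower in resistant cells (log2 fold change -1.41 ± 0.44). The levels of KLK13 in resistant cells lay within a few counts of the floor. The expressed kallikreins lay together: KLK5, KLK6, KLK7 and KLK8 were adjacent, KLK10 followed after KLK9, and the genes from KLK1 to KLK4 had at most 4 counts.

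**Figure D3:**
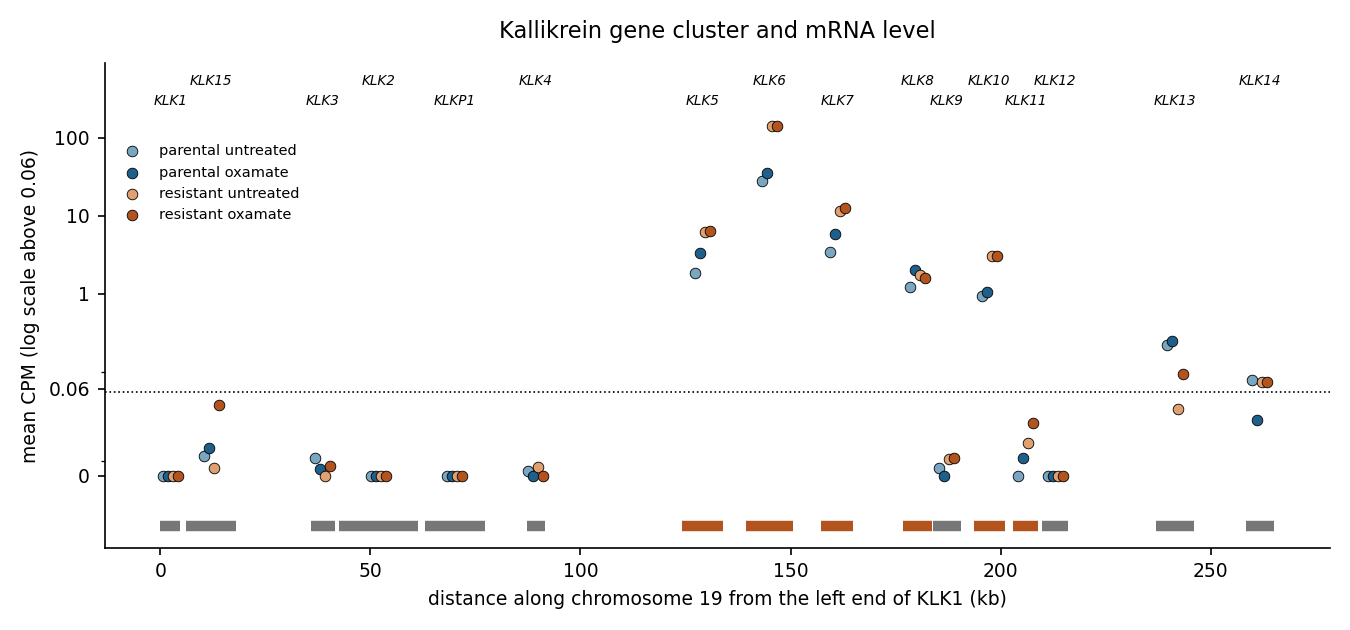
Mean CPM of the 16 kallikrein genes in the 4 groups (vertical axis, linear up to 0.06 CPM and logarithmic above) against distance along chromosome 19 in kb, with bars below for gene extents (orange for the 6 members, grey for others) and a dotted line at the highest library's floor. KLK5 to KLK8 and KLK10 lie above 0.9 CPM in all groups, and KLK1 to KLK4, KLK9, KLK11, KLK12 and KLK15 lie below the line.

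Of the 5 annotated genes on each side of the cluster, 10 in all, only C19orf48 and CTU1 were measured. C19orf48, 14.6 kb before KLK1, had group means of 66.0 to 74.4 CPM and a log2 fold change of 0.094 ± 0.035 between lines under oxamate (edgeR adjusted p = 0.0222). CTU1, 13.4 kb after KLK14, which encodes a tRNA-modifying protein, was lower in resistant cells under oxamate, with 20.3 ± 0.675 CPM in treated parental and 12.5 ± 0.416 CPM in treated resistant cells (log2 fold change -0.70 ± 0.058, edgeR adjusted p = 1.06e-08). ACPT did not exceed 4 counts, and SNORD88A, SNORD88B, SNORD88C, SIGLEC9, SIGLEC7, LOC101928517 and SIGLEC17P did not exceed 1.

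Of 19 genes for inhibitors of kallikreins, 7 were measured, and SPINK5, the inhibitor best known for KLK5 and KLK7, did not exceed 5 counts. Oxamate raised 6 of the 7 in parental cells against 28.3% of all genes, and in resistant cells it raised none and lowered 3, against 12.5% of all genes. The inhibitor SERPINA1 went from 11.8 ± 0.529 to 21.3 ± 2.01 CPM in parental cells (log2 fold change 0.84 ± 0.059, edgeR adjusted p = 1.03e-08). Between the lines under oxamate, 3 were lower and 1 higher in resistant cells, 4 of 7 against 80.3% of all genes called. SERPINA3, which binds chymotrypsin-like proteases, had 1512 ± 58.9 CPM in treated parental and 987.2 ± 15.9 CPM in treated resistant cells (log2 fold change -0.61 ± 0.029, edgeR adjusted p = 1.16e-11). The median of the 7 was 0.25 after oxamate in parental cells, against 0.00296 over all genes.

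Of the 4 protease-activated receptors, which kallikreins can cut, 3 were measured and 2 were higher and 1 lower in resistant cells under oxamate, where 80.3% of all genes were called. F2R (PAR1) had 177 ± 4.13 CPM in treated parental and 252.8 ± 1.19 CPM in treated resistant cells (log2 fold change 0.51 ± 0.023, edgeR adjusted p = 5.84e-12). F2RL1 (PAR2) went the other way, with 49.0 ± 2.44 and 19.3 ± 1.22 CPM (-1.35 ± 0.051, edgeR adjusted p = 7.52e-13). F2RL2 (PAR3) was measured at 0.159 to 0.426 CPM.

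Of 18 other serine proteases of the cell surface and its surroundings, 8 were measured, and 3 were higher and 2 lower in resistant cells under oxamate, 5 of 8 against 80.3% of all genes called, with a median log2 fold change of 0.17 against 0.0149. PLAU, the urokinase gene, had 671.8 ± 6.89 CPM in treated parental and 460.1 ± 1.82 CPM in treated resistant cells (log2 fold change -0.55 ± 0.022, edgeR adjusted p = 1.73e-12). HTRA1 was higher in resistant cells under oxamate, with 13.3 ± 1.07 and 21.9 ± 0.789 CPM (0.72 ± 0.058, edgeR adjusted p = 6.72e-09). Without drug the lines had 19.1 ± 0.425 and 21.5 ± 1.38 CPM, and HTRA1 fell with oxamate in parental cells (-0.52 ± 0.056, edgeR adjusted p = 9.64e-07). In parental cells oxamate raised 4 of the 8 and lowered 1, against 28.3% higher and 30.4% lower over all genes. Among the 4 was PLAT, the tissue plasminogen activator (0.84 ± 0.081, edgeR adjusted p = 2.86e-07). PRSS8, among the 2 lower between lines and the 4 raised in parental cells, had at most 25 counts. Its group means were 0.274 CPM in treated parental cells and 0.0898 to 0.122 CPM in the other groups. Its passing of the filter on low counts rested mainly on treated parental cells, which favours both calls. Its place in these counts is therefore a description.

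Of 24 substrates assigned to kallikreins, 11 were measured and 4 were higher and 4 lower in resistant cells under oxamate, against 40.6% higher and 39.7% lower over all genes. MMP9, among the 4 lower, had at most 23 counts. Its group means were 0.351 CPM in treated parental cells and 0.0741 to 0.154 CPM in the other groups. Its passing of the filter on low counts rested mainly on treated parental cells, which favours a lower value in resistant cells. Its place in the count is therefore a description. FN1, which encodes fibronectin, had 0.445 ± 0.0555 CPM in treated parental and 21.8 ± 0.336 CPM in treated resistant cells (log2 fold change 5.59 ± 0.099, edgeR adjusted p = 1.34e-16). LAMB3, a laminin chain, had 2.58 ± 0.17 and 12.0 ± 0.629 CPM (2.21 ± 0.066, edgeR adjusted p = 4.98e-14). MBP, the gene of myelin basic protein, a substrate of KLK6, had 74.5 ± 1.27 and 178.6 ± 1.45 CPM (1.26 ± 0.025, edgeR adjusted p = 4.74e-16). Without drug it had 116.5 ± 2.85 and 176.9 ± 0.863 CPM, and it fell with oxamate in parental cells (-0.645 ± 0.0247, edgeR adjusted p = 2.06e-11). Counts were per gene, so different transcripts of MBP were not told apart. PLAUR, the urokinase receptor, had 206.8 ± 5.05 and 93.6 ± 0.868 CPM (-1.14 ± 0.027, edgeR adjusted p = 3.97e-15). Among junction proteins, DSG2 had 81.6 ± 2.61 and 111.1 ± 2.67 CPM (0.45 ± 0.034, edgeR adjusted p = 3.31e-09), CDSN lay between 0.108 and 0.326 CPM in group means, and DSG1 and CDH1 did not exceed 2 counts.

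Steroid hormones and vitamin D are known to regulate kallikrein genes in other tissues. ESR1 did not exceed 2 counts and PGR was at 0, while 4 of the 7 receptors on the list were measured, 3 higher and 1 lower in resistant cells under oxamate, where 80.3% of all genes were called. The lower one was NR3C1, the most abundant of the 4, with 52.6 ± 2.38 CPM in treated parental and 41.7 ± 1.63 CPM in treated resistant cells (log2 fold change -0.335 ± 0.0445, edgeR adjusted p = 3.47e-06). VDR, the vitamin D receptor, had 1.59 ± 0.0906 CPM in untreated parental, 0.978 ± 0.16 in treated parental, 2.44 ± 0.264 in untreated resistant and 2.38 ± 0.297 CPM in treated resistant cells, and fell with oxamate in parental cells (log2 fold change -0.71 ± 0.14, edgeR adjusted p = 0.000422). Drug-treated parental and resistant cells thus differed for the receptor by 1.29 ± 0.14 on the log2 scale (edgeR adjusted p = 3.53e-07).

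**Figure D4:**
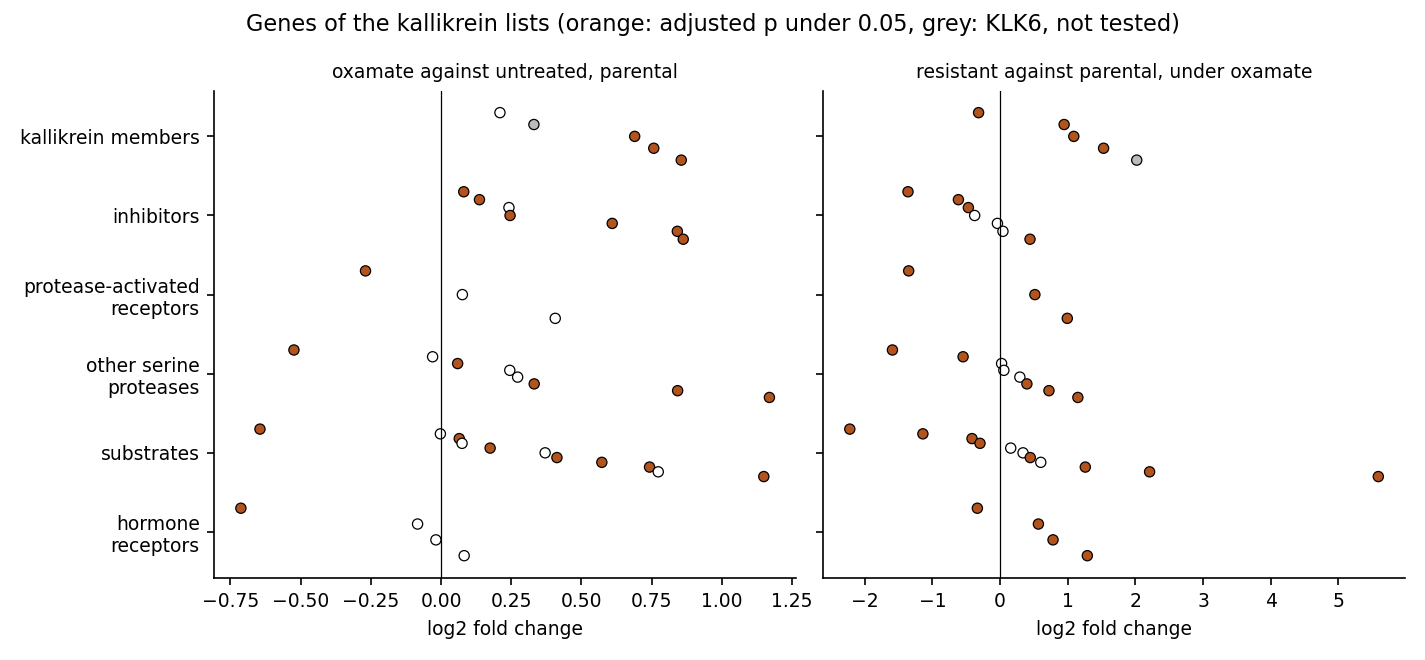
Log2 fold change (horizontal axis) of the measured genes of the 6 lists after oxamate in parental cells (left) and between resistant and parental cells under oxamate (right), each point a gene, orange where the edgeR adjusted p was under 0.05 and grey for KLK6, which was not tested. Of the 4 tested members, 3 lie above 0 and are orange in each panel, and the one below 0 at right, KLK8, is not below 0 when libraries are scaled by size alone. The orange points of PRSS8 and MMP9 are a description, since both passed the filter mainly through treated parental cells.

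The genes whose pattern was most like that of KLK6 were found by the root mean square difference of log2 CPM, centred on each gene's mean over the 12 libraries. They were MAPRE2 (0.128), PLEKHA5 (0.133), CAMK1G (0.145), PCNXL2 (0.163) and COL8A2 (0.163). MAPRE2 had 3.27 ± 0.124 CPM in untreated parental and 15.1 ± 0.211 CPM in untreated resistant cells. None of the other members was among them. The nearest of these was KLK10, at a distance of 0.325 (rank 126 of the tested genes), followed by KLK7 at 0.424 (rank 279), KLK5 at 0.46 (rank 349) and KLK8 at 1.06 (rank 6454).

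**Figure D5:**
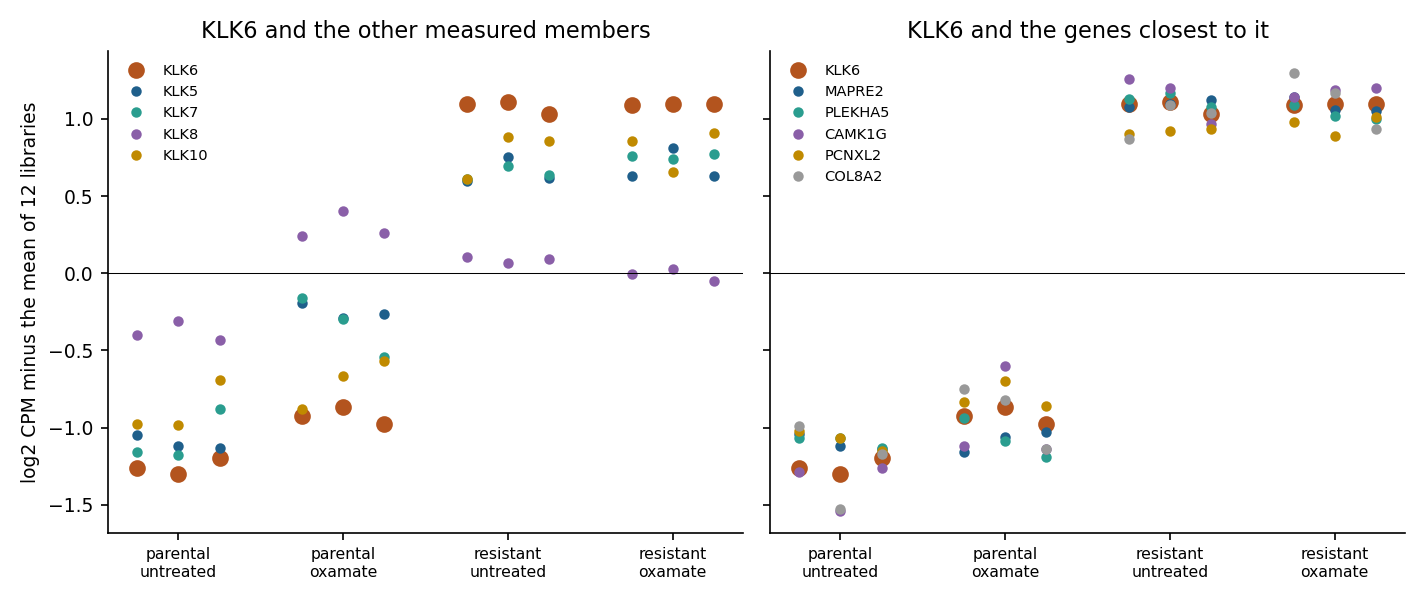
Log2 CPM of each gene minus its mean over 12 libraries (vertical axis) by group, with 1 point per library, for the measured members (left) and for KLK6 and its 5 closest genes (right). On the left KLK8 is highest in treated parental cells under TMM scaling, while the 5 genes on the right lie below 0 in parental and above 0 in resistant libraries, as KLK6 does.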

How the data were processed

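RNA from the 4 groups was sequenced in 12 libraries. Libraries of poly(A) RNA were mapped and counted by the authors, who, per the labels, used Bowtie2 2.1.0 and RSEM 1.2.15 with hg38. They deposited RSEM expected counts per gene symbol, without normalization. After rounding, they were fitted in R 4.3.3 with edgeR 4.0.16 on all 12 libraries, using the default filterByExpr (14582 genes kept), TMM, and glmQLFit with glmQLFTest on the 4 group means. A gene was called where its Benjamini-Hochberg adjusted p was under 0.05. The count with a fold change over 1.5 was given beside it. The members, the gene lists and the motifs were chosen with earlier results of these data known, and KLK6 was given no test. From each list at most 5 genes with the smallest p, or those that a result turned on, were named. Single values of 2 list genes are not reported here. Alternatives were RLE, upper-quartile and library-size scaling, unrounded counts, no filter, a minimum mean count of 25, a replicate block, limma-voom (limma 3.58.1), DESeq2 1.42.0, only the samples compared, a fold threshold, and each replicate left out. Coordinates came from GENCODE 29 and RefSeq GRCh38.p14. ATAC-seq and metabolite data were not used here.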

Additional observations from a re-analysis of the deposited data

Results flagged for a closer look

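The oxamate response differed between the cell lines for 3 members, by a test of the difference itself (the response in resistant cells minus that in parental cells, quasi-likelihood test of edgeR, Benjamini-Hochberg adjusted). It was lower in resistant cells by a log2 difference of -0.823 for KLK5 (adjusted p = 2.19e-05), -0.794 for KLK8 (adjusted p = 0.000285) and -0.648 for KLK7 (adjusted p = 0.000445). Of the 3, KLK8 was the one whose level without drug differed least between the lines, 1.39-fold. All 3 calls were kept under each of the 23 alternatives, in which the difference ran from -0.885 to -0.718 for KLK5, from -0.834 to -0.689 for KLK8 and from -0.767 to -0.542 for KLK7.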

How the results depend on the processing

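The number of called members of the 4 tested was 3 or 4 between lines under oxamate, 3 after oxamate in parental cells, 0 in resistant cells and 3 for the difference between the responses, over 18, 18, 18 and 23 alternatives. KLK8 under oxamate reversed with library size alone (0.0065, adjusted p = 0.955), where the median of all genes moved by 0.324, and missed the threshold with upper-quartile factors (-0.231) and with DESeq2 (-0.323). It was called in all 6 fits that left out 1 library (-0.347 to -0.266, edgeR adjusted p 0.0119 to 0.0495). With the added fold threshold KLK8 under oxamate was no longer called. The untreated log2 fold change of KLK6 was 2.42 with upper-quartile factors, 2.56 with library size alone, and 2.32 to 2.37 with 1 library left out.

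Same-numbered replicates correlated weakly: over 18 pairs of groups and numbers r ran from -0.074 to 0.245, and 3 were above 0.1. The highest joined replicate 3 of treated parental and of untreated resistant cells, each the highest of its group in nuclear-retained RNA. A replicate block raised the genes called from 3139 to 3750 after oxamate in resistant cells and from 6438 to 6798 for the difference between the responses. With the replicate block the numbers of called members were 4, 3, 0 and 3 as without it, and KLK7 under oxamate was 1.09 (edgeR adjusted p = 1.07e-08). Depth limits KLK11, at 12 counts in all, and the low-level kallikreins. Exposure and dose of the RNA-seq treatment, strand and separate cultures are not stated.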
